A study of Mus musculus with 19 samples.

Results

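Replication-dependent histone genes encode the core histones H2A, H2B, H3 and H4 and the linker histone H1 that package newly made DNA. They were taken as every gene of the deposited expression tables whose symbol starts with Hist1h, Hist2h, Hist3h or Hist4h. This rule found 59 of the 16259 genes listed in either table: 5 for H1, 14 for H2A, 16 for H2B, 11 for H3 and 13 for H4. The table of stimulated cells held 55 of them and the table of sorted cells 52, with 48 in both. A gene was kept in a set of libraries where it reached 1 RPKM (reads per kilobase of gene, scaled to library depth) in at least 2 libraries, which 14 genes did in stimulated cells and 22 in sorted cells, 12 of them in both.

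RNA of mouse regulatory T cells (Tregs), which hold other immune cells in check, was sequenced in 19 libraries of 9 groups. All mice, controls included, were C57Bl/6 carrying Foxp3-CRE-YFP, in which Cre recombinase and a yellow fluorescent protein are made in Foxp3-expressing cells, and the YFP+ cells were taken from spleen and lymph nodes. In the first set, 6 libraries came from Tregs cultured for 16 h with plate-bound anti-CD3 at 5 ug/mL, soluble anti-CD28 at 1 ug/mL and IL-2 at 10 ng/mL. Its groups, of 2 libraries each, were WT Tregs with pentoxifylline at 500 ug/mL, c-RelKO Tregs (floxed Rel, c-Rel F/F) for which no added agent is stated, and WT Tregs with water, the diluent of the drug. The second set held 13 libraries of Tregs processed directly after sorting, without stimulation. Activated Tregs (aTreg, gated on surface markers including CD44hi) came from p65KO mice (floxed Rela, p65 F/F; 2 libraries), c-RelKO mice (2) and WT mice (3), and resting Tregs (rTreg, gated likewise with CD44lo) from p65KO, c-RelKO and WT mice (2 each). Cre acts in Foxp3-expressing cells, so other cells of the KO mice keep c-Rel or p65. The age of the mice, and whether libraries of a group came from separate mice or cultures, are not given in the sources used here; p-values therefore measure the spread between these libraries, which may be technical.

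Most histone messenger RNAs of this kind have no poly(A) tail. They end a few bases after a short hairpin, the stem-loop, which is bound by the stem-loop binding protein SLBP and cut with the help of the U7 particle. Cells make them mainly in S phase, when DNA is copied, under control of NPAT, and degrade them when replication stops. Some members are also known to give longer, polyadenylated transcripts, among them Hist1h1c, Hist1h2bc and Hist2h2be. Whether polyadenylated RNA was selected here is not given in the sources used here, and the labels name total RNA as the molecule, so the levels below may hold both kinds of transcript in unknown proportions. Pentoxifylline is a methylxanthine that inhibits phosphodiesterases. c-Rel and p65 are subunits of NF-kB, a transcription factor family.

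The genes lie on 4 chromosomes, with 46 on chromosome 13, 9 on chromosome 3, 3 on chromosome 11 and 1 on chromosome 6 in GENCODE vM21 (GRCm38). The H2B member Hist3h2bb-ps, which was kept in neither set, is annotated as a processed pseudogene. In that annotation 57 of the 59 have a single exon. The stem-loop was searched as 6 base pairs around a loop of 4 bases. It had to start with GG, end with CC and have TT at the start of the loop. Such a stem-loop was found in the annotated transcript of 40 members. In 19 of these the transcript stopped 3 to 74 bases after the stem-loop, in 21 it went on for 151 to 4884 bases more, and in the other 19 members none was found. Members without a find may still have a stem-loop of another form, or one beyond their annotated end. The annotated transcript of Hist1h2ak, for example, has 393 bases, while the gene was counted over 536 in stimulated cells. These 3 classes and their limit of 100 bases were chosen after the values of the genes were known. The stem-loops of the stimulated-cell genes described most closely below are shown 5′ to 3′ as transcribed, in DNA letters, with the 16 bases of the hairpin in capitals and 6 bases on each side in lower case. The first 4 belong to transcripts that end near the stem-loop, the next 5 to transcripts that continue, and the last to a member kept in sorted cells.
Hist1h2bj, chr13:22043632-22043659 on the + strand: tccaaaGGCTCTTTTCAGAGCCacgcac
Hist1h3c, chr13:23745041-23745068 on the - strand: aaaaaaGGCTCTTTTAAGAGCCacctaa
Hist1h3a, chr13:23761884-23761911 on the - strand: accaaaGGCTCTTTTCAGAGCCacacac
Hist1h4b, chr13:23757360-23757387 on the + strand: acaaaaGGTCCTTTTCAGGACCactcac
Hist1h1c, chr13:23739506-23739533 on the + strand: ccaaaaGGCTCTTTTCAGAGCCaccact
Hist3h2a, chr11:58955166-58955193 on the + strand: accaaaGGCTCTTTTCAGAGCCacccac
Hist3h2ba, chr11:58949343-58949370 on the + strand: cccaaaGGCTCTTTTCAGAGCCaccttc
Hist1h4d, chr13:23581944-23581971 on the + strand: accaaaGGCCCTTTTCAGGGCCactacc
Hist1h4i, chr13:22040960-22040987 on the - strand: cttaaaGGCCCTTTTTAGGGCCaccaca
Hist1h4n, chr13:21831792-21831819 on the - strand: actaaaGGCCCTTTTCAGGGCCatccaa

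Within the pattern searched, which fixed some of their bases, the 40 hairpins came in 6 sequences. The most frequent, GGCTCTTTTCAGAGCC, stood in 23 members (3 for H1, 8 for H2A, 8 for H2B and 4 for H3) and in no H4 gene. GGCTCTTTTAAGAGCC was found in 2 H2B and 3 H3 genes, and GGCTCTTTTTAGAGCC in 1 H2A gene. All 11 H4 genes with a hairpin had one of the forms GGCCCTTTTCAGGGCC (7), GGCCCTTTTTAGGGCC (2) and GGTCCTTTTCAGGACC (2). Hist1h1c, Hist3h2a and Hist1h2bj thus share the same 16 bases although their transcripts end 840, 1643 and 23 bases after them.

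Copies within the family are close in sequence. Of the 50-base windows of a member's transcript, a median of 49.3% also occurred in the transcript of another gene, with medians of 2.25% for H1, 62.6% for H2A, 46.8% for H2B, 63.5% for H3 and 39.5% for H4 members. Reads from such windows cannot be given to 1 copy with certainty, and how they were treated is not given in the sources used here. In addition 20 members overlap another annotated gene, 7 of them on the same strand, and whether counting used strand is not given either. Hist3h2a overlaps Trim17 on its own strand.

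Promoters were available from RefSeq (GRCm38.p6) as windows of 250 bases before to 50 bases after a gene's start for 53 members, in 54 windows. The octamer ATTTGCAT, the site of the factor Pou2f1 and its relatives, was found on either strand in 20.4% of member windows and in 1.74% of all 32851 windows of that length. It stood in 5 of 14 H2A and 6 of 14 H2B windows and in none of the 5 H1, 9 H3 and 12 H4 windows. CCAAT was found in 83.3% of member windows and in 37.4% of all. It stood in every H1, H2A, H2B and H3 window but in 3 of 12 H4 windows. TATAAA was found in 57.4% of member windows and in 13.6% of all, and an E2F site (TTTCGCGC or TTTGGCGC) in 14.8% against 0.813%, in 4 H2A and 4 H2B windows. Windows of neighbouring H2A and H2B genes on opposite strands can cover the same bases, so 1 site can count in 2 windows. Hist1h2ag and Hist1h2bj share an E2F site in this way, and Hist1h2ae and Hist1h2bg an octamer. The 250 bases upstream of a gene that was lower with pentoxifylline (Hist1h2bj) and of 2 that were higher (Hist3h2a and Hist1h1c) are given next on the gene's strand, with matches to the octamer, CCAAT and E2F letters in capitals, on either strand. None of the 3 stretches holds TATAAA. Nearly all bases of the Hist1h2bj stretch also lie upstream of Hist1h2ag, on the other strand.
Hist1h2bj, chr13:22042948-22043197 on the + strand: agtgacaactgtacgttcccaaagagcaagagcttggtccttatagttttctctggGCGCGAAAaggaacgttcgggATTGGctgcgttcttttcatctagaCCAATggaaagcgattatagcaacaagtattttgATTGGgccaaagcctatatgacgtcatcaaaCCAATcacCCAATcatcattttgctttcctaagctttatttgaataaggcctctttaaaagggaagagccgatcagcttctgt
Hist3h2a, chr11:58954435-58954684 on the + strand: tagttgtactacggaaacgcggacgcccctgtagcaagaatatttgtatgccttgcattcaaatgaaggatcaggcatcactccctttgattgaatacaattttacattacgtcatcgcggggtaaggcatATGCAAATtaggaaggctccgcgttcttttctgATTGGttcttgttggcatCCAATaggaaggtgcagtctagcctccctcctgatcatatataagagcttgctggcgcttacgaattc
Hist1h1c, chr13:23738557-23738806 on the + strand: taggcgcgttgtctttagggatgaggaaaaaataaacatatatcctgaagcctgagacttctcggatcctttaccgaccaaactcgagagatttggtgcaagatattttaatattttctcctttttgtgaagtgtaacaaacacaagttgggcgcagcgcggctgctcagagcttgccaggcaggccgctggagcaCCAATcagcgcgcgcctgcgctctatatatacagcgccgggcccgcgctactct

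Foxp3, the factor that defines Tregs, had 107 to 290 RPKM in stimulated and 28.1 to 102 RPKM in sorted libraries. Both lowest values were those of c-RelKO libraries. They belonged to stimulated replicate 1 (193 RPKM in replicate 2) and rTreg replicate 2 (73.6 RPKM in replicate 1). Some libraries stood apart in other genes as well. Rel had 2.44 and 25 RPKM in stimulated c-RelKO Tregs, 93.5 and 79.9 with pentoxifylline and 55.1 and 55.8 with water, so c-RelKO replicate 2 went partly against its label. In sorted cells Rel was at 1.39 to 5.37 RPKM in c-RelKO libraries, against 10.9 to 22 in WT libraries. Rela had 46.8 and 56.1 RPKM in p65KO aTregs, against 62.3 to 68.3 in WT aTregs, and 69.4 and 59.9 in p65KO rTregs, against 71.5 and 69.0 in WT rTregs, and such gene-level values cannot show a deletion of some exons. In stimulated cells the summed level of 2 plasma cell markers was 0.456 to 0.516 RPKM in c-RelKO, 7.46 to 19.9 with pentoxifylline and 11.1 to 16.6 with water; that of 5 B cell markers was 5.00 to 5.16, 4.95 to 6.04 and 6.79 to 9.90 RPKM in the same order. In sorted cells the summed level of NK cell markers was 12.4 to 31.8 RPKM in c-RelKO aTregs, against 2.98 to 9.02 in WT aTregs, and 14.8 to 18.7 in c-RelKO rTregs, against 8.67 to 14.1 in WT rTregs, and that of 5 B cell markers 22.4 to 23.3 RPKM in p65KO aTregs, against 10.3 to 10.9 in p65KO rTregs, and 11 to 24.2 in the other groups. Myeloid markers summed to 4.57 RPKM or less and erythroid markers to 5.67 or less. The part of other cells in the histone values was not tested.

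In stimulated Tregs the kept members were Hist1h1c (H1), Hist3h2a and Hist1h2ae (H2A), Hist1h2bc, Hist3h2ba, Hist1h2bj and Hist2h2be (H2B), Hist1h3c, Hist1h3a and Hist1h3e (H3), and Hist1h4i, Hist1h4d, Hist1h4b and Hist1h4c (H4). The RPKM values of these cells fell on exact multiples of what 1 read is worth, which gave the reads of every member. The 41 members under the filter held 764 reads over the 6 libraries (2 to 98 reads each, median 13), against 4282 reads in the 14 kept. By their second-highest library, Hist1h4c (1.08 RPKM) and Hist1h4b (1.12) were just inside the filter and Hist1h4h (0.985) and Hist2h4 (0.873) just outside. Since a gene high in only 1 group can pass this filter through that group, the counts over kept members are no evidence on the family as a whole.

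With pentoxifylline the kept members differed from water in both directions, as genes in general did. Of the 14 kept members 5 were higher and 3 lower than with water (limma, adjusted p under 0.05), while 19.6% of all 9945 genes tested were called higher and 23.9% lower, 43.5% in all. The linker histone gene Hist1h1c, Hist3h2a and the H2B genes Hist1h2bc, Hist3h2ba and Hist2h2be rose. Hist1h2bj (H2B), Hist1h3c and Hist1h3a (both H3) fell. The median log2 difference of the 14 was -0.65, against 0.00 over all genes, and 8 of 14 were below 0 (49.9% of all genes). Every drug library was above every water library for 5 members (37.2% of all genes) and below for 6 (38.3%). Set beside the 43.5% of all genes called, the count is not read as a result about the family; the direction differed between its members, as the plot of their values by library shows. In bulk samples such as these, fewer cells of a type and less RNA per cell cannot be told apart.

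**Figure D1:**
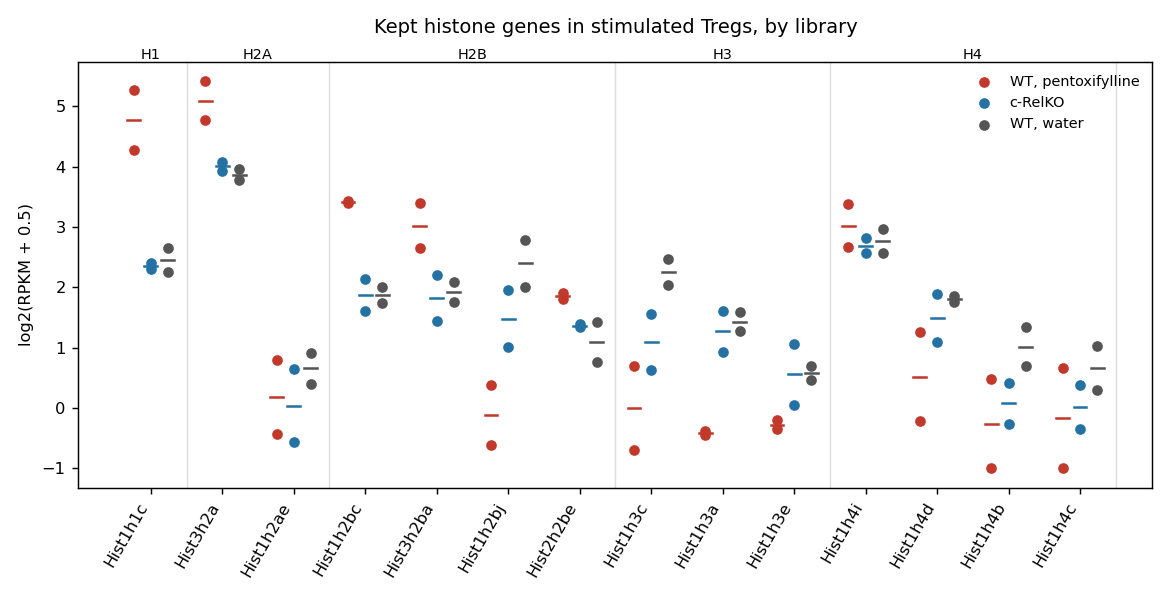
Level of each of the 14 kept histone genes in stimulated Tregs as log2(RPKM + 0.5), by library (points) with the group mean (short lines), in WT Tregs with pentoxifylline, c-RelKO Tregs and WT Tregs with water, ordered by histone type. Both pentoxifylline libraries lie above all water libraries for Hist1h1c, Hist3h2a, Hist1h2bc, Hist3h2ba and Hist2h2be. They lie below them for Hist1h2bj, Hist1h3c and Hist1h3a, and also for Hist1h3e, Hist1h4d and Hist1h4b, which were not called.

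Hist1h1c encodes H1.2, a linker histone that binds DNA between nucleosomes (ENSMUSG00000036181.2, chr13:23738808-23740367, + strand). It had 38.0 and 18.9 RPKM with pentoxifylline, 4.41 and 4.80 RPKM in c-RelKO Tregs and 5.80 and 4.25 RPKM with water. Both drug libraries stood far above the other 4, and also differed from each other. Group means were 28.4 ± 13.5 RPKM with pentoxifylline and 5.03 ± 1.09 RPKM with water (SD, n = 2 each), a ratio of 5.66. The log2 difference was 2.32 (SE 0.31, limma adjusted p = 0.00174). These values rest on 478 and 204 reads with pentoxifylline, against 92 and 64 reads with water. Hist1h1c took 33.3% and 26.7% of all reads on histone members in the pentoxifylline libraries (95% Wilson intervals 30.9 to 35.8 and 23.7 to 29.9), against 11.7% and 7.95% with water (9.65 to 14.2 and 6.28 to 10.0). The other 4 H1 members did not reach the filter.

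Hist3h2a, an H2A gene of the chromosome 11 cluster (ENSMUSG00000078851.4, chr11:58954685-58956830, + strand), had 42.1 and 26.9 RPKM with pentoxifylline, 16.4 and 14.8 in c-RelKO Tregs and 15 and 13.2 with water. The drug libraries lay above all others, and this member had the highest level per length of the 14 in every library. The log2 difference between pentoxifylline and water was 1.23 (SE 0.21, limma adjusted p = 0.00417). The second kept H2A gene, Hist1h2ae, had 1.24 and 0.24 RPKM with pentoxifylline, 0.179 and 1.06 in c-RelKO and 0.819 and 1.38 with water; the groups overlapped (adjusted p = 0.502).

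The 4 H2B members went in both directions. Hist1h2bc (ENSMUSG00000018102.5, chr13:23684199-23692908, + strand), whose annotated transcript has 2 exons and no stem-loop, had 10.1 and 10.3 RPKM with pentoxifylline, 2.56 and 3.88 in c-RelKO and 2.83 and 3.49 with water. Its drug libraries were close together and above all others, with a log2 difference from water of 1.55 (SE 0.22, limma adjusted p = 0.002). Hist3h2ba, the neighbour of Hist3h2a, had 9.98 and 5.80 RPKM with pentoxifylline, 4.11 and 2.20 in c-RelKO and 2.87 and 3.75 with water (log2 difference from water 1.1, SE 0.33, adjusted p = 0.0321). Hist2h2be, a long H2B gene on chromosome 3 that shares none of its 50-base windows with another gene, had 3.26 and 2.99 RPKM with pentoxifylline, 2.04 and 2.11 in c-RelKO and 2.18 and 1.19 with water (0.77, SE 0.26, adjusted p = 0.0485). The last 2 genes also had both drug libraries above all others, with smaller gaps. The call of Hist2h2be was lost without any 1 of the 6 libraries other than water replicate 1, with a pseudocount of 0.1, with no filter and with only the groups compared. That of Hist3h2ba was lost without pentoxifylline replicate 1 or either water replicate and with no filter.

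Hist1h2bj (ENSMUSG00000069300.3, chr13:22043214-22043676, + strand) went the other way, with 0.806 and 0.156 RPKM with pentoxifylline, 1.51 and 3.37 in c-RelKO and 3.52 and 6.40 with water. The 3 groups did not overlap, and c-RelKO lay between the WT groups. These values stand for 6 and 1 reads with pentoxifylline, 13 and 27 reads in c-RelKO and 33 and 57 reads with water. The log2 difference between pentoxifylline and water was -2.51 (SE 0.46, limma adjusted p = 0.00508). Since 59.4% of its windows occur in other transcripts, which H2B copy these reads came from is uncertain.

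The 3 kept H3 genes encode core histone H3 of the replication-dependent kind. Hist1h3c (ENSMUSG00000069310.4, chr13:23744973-23745602, - strand) had 0.120 and 1.12 RPKM with pentoxifylline, 1.04 and 2.46 in c-RelKO and 3.62 and 5.02 with water. Its drug libraries, with 1 and 8 reads, lay below the water libraries with 38 and 50 reads. The log2 difference was -2.25 (SE 0.50, limma adjusted p = 0.0102), and the call was lost without water replicate 2 (adjusted p = 0.071). Hist1h3a (ENSMUSG00000069265.2, chr13:23761853-23762386, - strand) had 0.230 and 0.267 RPKM with pentoxifylline, 1.39 and 2.56 in c-RelKO and 1.91 and 2.49 with water. Here the drug libraries, with 2 reads each, lay below the other 4, which overlapped among themselves. Its log2 difference from water was -1.84 (SE 0.31, adjusted p = 0.00336). Hist1h3e had 0.368 and 0.285 RPKM with pentoxifylline, 0.531 and 1.60 in c-RelKO and 0.875 and 1.13 with water, and did not pass the test (-0.86, adjusted p = 0.105).

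None of the 4 H4 genes passed. Hist1h4i, which had the highest level of the 4, had 9.87 and 5.82 RPKM with pentoxifylline, 5.45 and 6.51 in c-RelKO and 5.44 and 7.29 with water; the groups overlapped (log2 difference 0.25, limma adjusted p = 0.473). Hist1h4d had 1.88 and 0.364 RPKM with pentoxifylline, 1.63 and 3.20 in c-RelKO and 3.10 and 2.88 with water (-1.28, adjusted p = 0.0653). Its drug libraries were below both water libraries but overlapped c-RelKO. Hist1h4b had 0.896 and 0 RPKM with pentoxifylline, 0.333 and 0.833 in c-RelKO and 1.12 and 2.03 with water (-1.28, adjusted p = 0.0871), and a count of 0 reads allows up to 0.447 RPKM in that library. Hist1h4c had 1.08 and 0 RPKM with pentoxifylline, 0.799 and 0.286 in c-RelKO and 0.731 and 1.54 with water (-0.84, adjusted p = 0.271), with up to 0.536 RPKM allowed by its 0.

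Grouped by the annotated 3′ end, the 4 kept members whose transcript ends near the stem-loop had a median log2 difference between pentoxifylline and water of -2.05, from -2.51 to -1.28, with 3 of 4 called lower. The 8 kept members whose transcript continues had a median of -0.11, with 3 called higher and none lower. Both kept members with no stem-loop found in the annotated transcript, Hist1h2bc and Hist2h2be, were called higher. Hist1h2bc was counted over 469 bases, while the transcript searched for it has 1156. Among the 4 members that end near the stem-loop, Hist1h4b reached 1 RPKM only in the 2 water libraries. The filter thus favoured a value below 0 for it. This grouping is a description, as it was made with the values known.

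Reads were also summed by these classes over every member of the stimulated table, whether kept or not, although a few members lead each sum. The 17 members that end near the stem-loop took 2.59 and 2.01 RPM (reads scaled to library depth as in RPKM, but not to gene length) with pentoxifylline (95% Poisson intervals 1.89 to 3.47 and 1.36 to 2.87), 3.10 and 6.16 in c-RelKO (2.37 to 3.97 and 5.09 to 7.39) and 6.54 and 10.4 with water (5.51 to 7.70 and 9.02 to 11.8). Both drug libraries were below both water libraries. Hist1h2bj, Hist1h3c, Hist1h3a and Hist1h4b held 103 of 143 and 152 of 215 of these reads in the water libraries. Without them the other 13 members took 1.67 and 1.27 RPM with pentoxifylline (1.12 to 2.40 and 0.767 to 1.99), 1.1 and 1.88 in c-RelKO and 1.83 and 3.04 with water (1.31 to 2.49 and 2.33 to 3.88). Both drug libraries were still below both water libraries, but the gap was far smaller. The drug and water intervals overlapped except those of pentoxifylline replicate 2 and water replicate 2. The 20 members whose transcript continues took 64.8 and 35.5 RPM with pentoxifylline, 18.7 and 20.6 in c-RelKO and 20.5 and 21.0 with water. Hist1h1c and Hist3h2a lead that class: without them its other 18 members took 15.9 and 8.18 RPM with pentoxifylline, 7.19 and 9.64 in c-RelKO and 8.68 and 11.2 with water, and the groups overlapped. The 18 members with no stem-loop found took 15.3 and 13.7 RPM with pentoxifylline, 7.49 and 9.0 in c-RelKO and 8.82 and 7.47 with water. Hist1h2bc and Hist2h2be held 233 of 266 and 191 of 205 of those reads with pentoxifylline, and the other 16 members took 1.90 and 0.938 RPM with pentoxifylline, 0.849 and 1.55 in c-RelKO and 1.69 and 2.65 with water, which overlapped. Intervals cover counting error only.

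**Figure D2:**
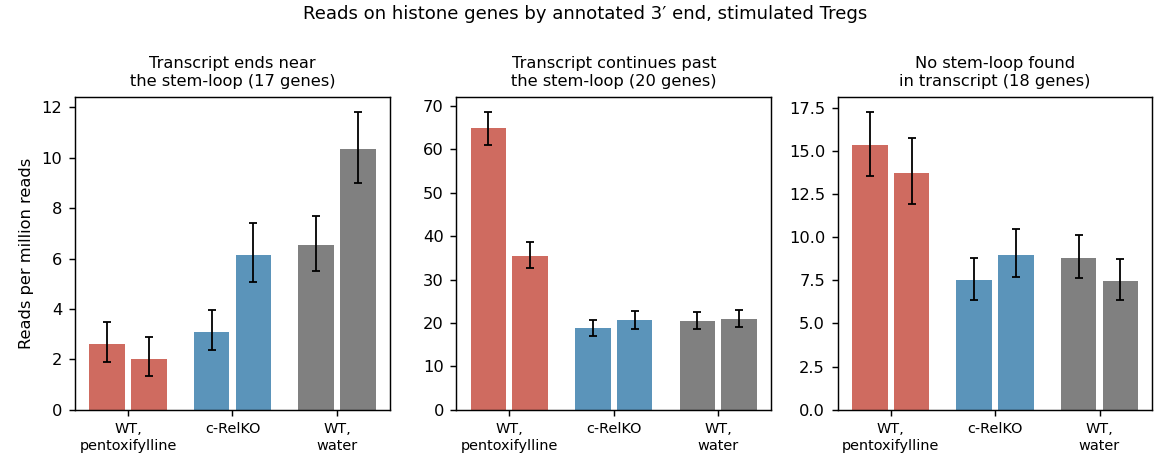
RPM (reads scaled to library depth) on all 55 histone genes of the stimulated table, summed by annotated 3′ end, in each of the 2 libraries of WT Tregs with pentoxifylline, c-RelKO Tregs and WT Tregs with water (bars, replicate 1 left; black lines are 95% Poisson intervals, for counting error only). In the left panel both pentoxifylline bars (2.59 and 2.01) stand below both water bars (6.54 and 10.4), while in the middle panel they stand above (64.8 and 35.5 against 20.5 and 21.0).

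By histone type the same reads showed H1 at 29.7 and 14.2 RPM with pentoxifylline, 3.90 and 4.71 in c-RelKO and 4.98 and 4.0 with water. H2A took 23.1 and 15.1 with pentoxifylline, 9.24 and 9.48 in c-RelKO and 9.10 and 9.78 with water. H2B took 19.9 and 16.2 with pentoxifylline, 10.1 and 11.2 in c-RelKO and 11.7 and 12.3 with water. The drug libraries were the highest for these 3 types, each led by the members called higher. Without Hist1h1c the other 4 H1 members took 2.19 and 0.536 RPM with pentoxifylline, 0.699 and 1.23 in c-RelKO and 0.777 and 0.915 with water, and without Hist3h2a the other 11 H2A members took 1.73 and 1.48 RPM with pentoxifylline, 0.899 and 1.98 in c-RelKO and 1.46 and 3.08 with water; both overlapped. Without Hist1h2bc, Hist3h2ba and Hist2h2be the other 13 H2B members took 1.90 and 0.67 RPM with pentoxifylline, 1.55 and 2.73 in c-RelKO and 3.29 and 5.78 with water, with the drug libraries below both water libraries. H3 took 2.19 and 2.48 RPM with pentoxifylline, 2.20 and 5.20 in c-RelKO and 4.98 and 6.26 with water, with the drug libraries below both water libraries. H4 took 7.78 and 3.28 with pentoxifylline, 3.90 and 5.20 in c-RelKO and 5.07 and 6.41 with water, and overlapped.

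The length used for counting bears on the levels of the continuing transcripts. The 8 kept members of that class were counted over 146 to 1638 bases less than their GENCODE transcript, and for 39 of 55 members the counted length equals the RefSeq gene length. Hist1h1c, for example, was counted over 725 bases, while its GENCODE transcript has 1560, of which 840 follow the stem-loop. Which bases were counted is not given in the sources used here. The RefSeq promoter window of Hist1h1c ends at base 23738806 and its GENCODE transcript starts at 23738808. Counting 725 bases from there would stop near the stem-loop (23739506-23739533). Reads of the continuing class may therefore come from the part up to the stem-loop, and its sums need not show transcripts that continue.

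Genes that work with histone production in S phase were described from lists chosen on general knowledge. Of 20 tested DNA replication genes 19 were lower with pentoxifylline than with water and none higher, with a median log2 difference of -1.46. Gins1, part of the replicative helicase, fell by 2.91 (limma adjusted p = 0.00086), and Tyms, which makes thymidylate, fell by 2.25 (adjusted p = 0.00357), both on the log2 scale used throughout. Of 18 histone chaperone genes 10 were lower and 1 higher; Ipo4, an importin that carries histones, fell by 2.56 (adjusted p = 0.000524), Hirip3 fell by 2.47 (0.000523), and Ubn1, a partner of the H3.3 chaperone HIRA, rose by 0.75 (0.00559). Of 18 genes for histone transcription and 3′ end formation 7 were lower and 1 higher. Ncbp2, a subunit of the cap-binding complex, fell by 1.88 (adjusted p = 0.000982), Srrt fell by 1.27 (0.00154), and Lsm11, part of the U7 particle, rose by 0.47 (0.0438). Slbp differed by -0.33 (adjusted p = 0.081) and Npat by 0.08, and neither passed. Without water replicate 2 the numbers called lower were 13 DNA replication genes and 4 genes of histone transcription and 3′ end formation.

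Among 9 tested histone genes that are expressed outside S phase as well, 3 were higher and 1 lower with pentoxifylline. Cenpa, the centromeric H3, rose by 1.34 (limma adjusted p = 0.00716) and H1f0, a linker histone of non-dividing cells, rose by 0.72 (adjusted p = 0.0333), while H2afy, macroH2A, fell by 0.47 (adjusted p = 0.0243). None of 11 tested mitosis genes was called (median -0.21, 1 with an unadjusted p under 0.05). Without either c-RelKO library, or with only the WT groups in the fit, 4 of them were called lower. Mki67 had 25.2 and 21.1 RPKM with pentoxifylline, 3.14 and 11 in c-RelKO and 21.5 and 17 with water.

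In c-RelKO Tregs no histone member passed against WT with water, nor did any of the 9945 genes (0% called by limma); 0 members and 791 genes (7.95%) had an unadjusted p under 0.05. The authors' deposited table calls 306 genes in this comparison and 0 of its 55 members. The median log2 difference of the 14 was -0.13, against 0.06 over all genes, with 11 of 14 below 0 (40.2% of all genes), and every c-RelKO library was lower in 3 members (16.3% of all genes) and higher in 0 (24.2%). The lowest values were those of Hist1h3c (-1.16, SE 0.50), Hist1h4b (-0.94) and Hist1h2bj (-0.91), with adjusted p-values of 0.626 or more; the other kept member that ends near the stem-loop, Hist1h3a, was at -0.16. No member passed without c-RelKO replicate 2 either.

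**Figure D3:**
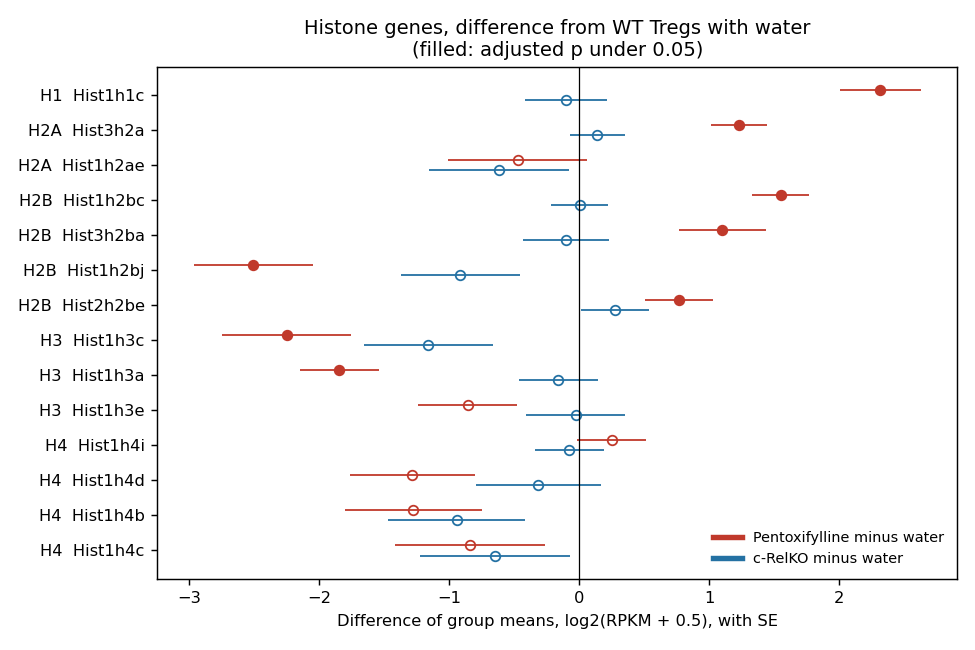
Difference of group means on the log2(RPKM + 0.5) scale with its SE for the 14 kept histone genes, for pentoxifylline minus water and c-RelKO minus water, which share the water libraries. Filled points have a limma adjusted p under 0.05: 8 for pentoxifylline, from -2.51 (Hist1h2bj) to 2.32 (Hist1h1c), and 0 for c-RelKO.

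Of 11 mitosis genes all were below 0, with every c-RelKO library lower than every water library and a median of -1.44, and none was called; without c-RelKO replicate 2 all 11 were called lower. Of 20 DNA replication genes 17 were below 0 (median -0.32) and none was called, against 4 lower without that library.

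Set directly against c-RelKO, pentoxifylline gave 4 members higher and 2 lower (21.6% and 26.8% of all genes called, 48.4% in all). Hist1h1c differed by 2.42 (limma adjusted p = 0.00109), Hist1h2bc by 1.55 (0.00155), Hist3h2ba by 1.2 (0.0214) and Hist3h2a by 1.09 (0.00565). Hist1h3a differed by -1.69 (0.00402) and Hist1h2bj by -1.59 (0.0249). Without c-RelKO replicate 2 the calls of Hist1h1c, Hist1h2bc, Hist3h2a and Hist1h3a held and the other 2 were lost. Those 2 calls also rested on 1 drug library each, Hist1h2bj on replicate 2 and Hist3h2ba on replicate 1. This comparison shares its drug libraries with the one against water. Here 14 of 20 DNA replication genes were lower, and 6 of 11 mitosis genes were higher, among them Ccnb2 (2.06, adjusted p = 0.0068) and Mki67 (1.87, 0.0142). The mitosis count was 1 without pentoxifylline replicate 1, 2 without replicate 2 and 11 without c-RelKO replicate 2. Of the chaperones 1 was higher (Ubn1, 0.73) and 9 were lower, led by Ipo4 (-2.73) and Hirip3 (-2.39), and of the genes for transcription and 3′ ends 1 was higher (Pou2f1, 0.65) and 7 lower, led by Ncbp2 (-1.97) and Srrt (-1.19). Of the histone genes expressed outside S phase 4 were higher, led by Cenpa (1.93) and H1f0 (1.25), and 2 lower, H2afj (-0.80) and H2afy (-0.53).

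In sorted Tregs, which were not stimulated, the 22 kept members were 3 of 5 for H1, 6 of 12 for H2A, 5 of 13 for H2B, 1 of 9 for H3 and 7 of 13 for H4. The deposited values of this set had been adjusted in a way the headers do not describe, 2.54% of all values lie below 0, and depth cannot be read from them. The limma p-values of this set measure the spread left after that adjustment, which the fit did not take into account. Values below 0 are given as deposited and were counted as 0 in sums and tests. By their second-highest library Hist1h4b (1.1 RPKM) and Hist1h2ak (1.23) were just inside the filter and Hist1h4m (0.916) and Hist1h2bg (0.847) just outside.

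Summed over all 52 members, the level was 34 and 58.1 RPKM in p65KO aTregs, 64.5 and 58.8 in c-RelKO aTregs and 86.9, 49.8 and 56.9 in WT aTregs. In rTregs it was 50.9 and 53.7 RPKM in p65KO, 43.8 and 66.1 in c-RelKO and 94.6 and 59.7 in WT. WT aTreg replicate 1 and WT rTreg replicate 1 were the highest libraries and p65KO aTreg replicate 1 the lowest, and among the KO groups set against WT of the same subset only p65KO rTregs did not overlap, lying below WT rTregs. WT rTreg replicate 1 was the highest of the 6 rTreg libraries for 13 of 22 kept members (36.4% of all genes), and WT aTreg replicate 1 the highest of the 7 aTreg libraries for 11 of 22 (14.1%). p65KO aTreg replicate 1 was the lowest of the 7 for 16 of 22 (14.6%).

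**Figure D4:**
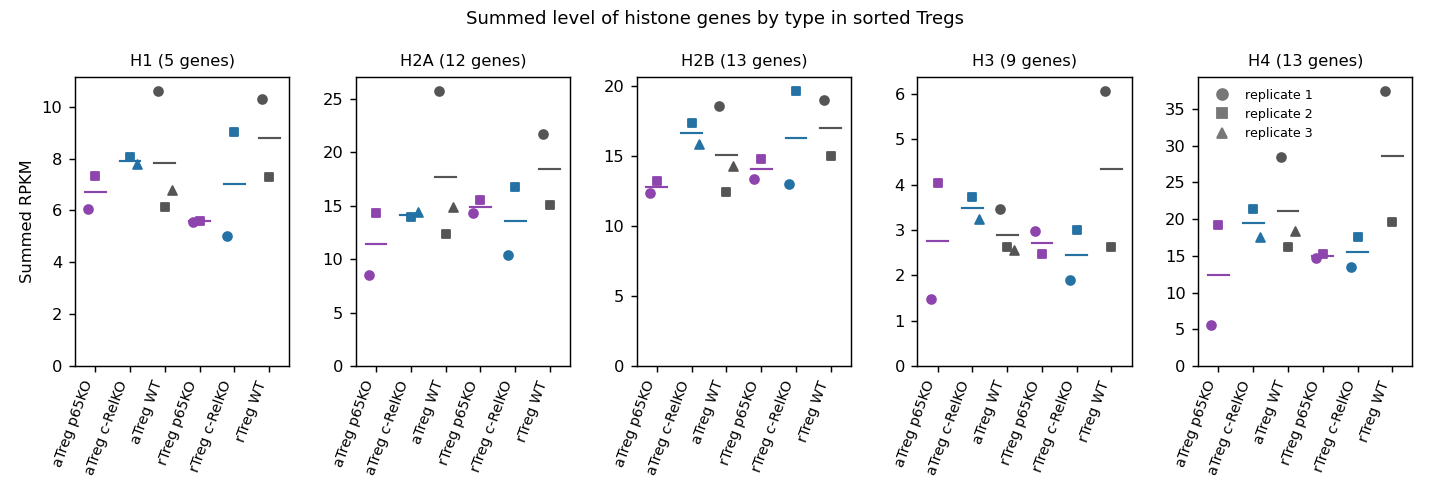
Summed RPKM of all histone genes of each type in the 13 sorted libraries (points, shape by replicate number) with the group mean (lines); each panel starts at 0 and has its own scale. Replicate 1 of WT aTregs and of WT rTregs is the highest library of its group in every panel.

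The levels of the leading members by type can be read from the 3 highest of each. Among H1 genes, Hist1h1c had 3.40 and 3.94 RPKM in p65KO aTregs, 5.17 and 5.23 in c-RelKO aTregs and 4.67, 3.71 and 4.38 in WT aTregs, and 3.88 and 3.79 in p65KO rTregs, 4.03 and 6.48 in c-RelKO rTregs and 7.55 and 4.90 in WT rTregs. WT aTreg libraries were all below WT rTreg libraries for this gene, while the subsets overlapped in both KO genotypes. Hist1h1e ranged from 0.610 to 2.36 RPKM over the 13 libraries. Hist1h1b had 1.2 and 1.46 RPKM in p65KO aTregs, 1.00 and 1.03 in c-RelKO aTregs and 2.87, 0.633 and 0.495 in WT aTregs, against 0.300 and 0.480, 0.0748 and 0.740, and -0.0295 and 0.458 in rTregs of the same genotypes. In each genotype every aTreg library was above every rTreg library, but the difference did not pass in any (WT log2 difference 1.17, limma adjusted p = 0.142).

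The H2A genes were led by Hist2h2aa1 (2.38 to 6.75 RPKM over the 13 libraries), Hist3h2a (2.30 to 5.96) and Hist1h2ao (0.858 to 8.73). Hist1h2ao had 8.73 RPKM in WT aTreg replicate 1, against 2.48 and 2.58 in the other WT aTreg libraries and 2.44 and 2.47 in WT rTregs. That single library set its group apart. The 2.58 RPKM of WT aTreg replicate 3 was also the exact deposited value of c-RelKO aTreg replicate 3. Whether such a shared value is a measured level is unknown. The transcripts of Hist2h2aa1 and Hist1h2ao share 89.4% and 93.5% of their windows with other genes, so their reads cannot be given to these copies with certainty. The H2B genes were led by Hist3h2ba (2.47 to 6.90 RPKM), Hist1h2bc (1.86 to 6.62) and Hist2h2be (1.61 to 5.33). The only kept H3 gene, Hist1h3e, ranged from 0.272 to 2.73 RPKM. The H4 genes were led by Hist1h4d, Hist1h4i (2.32 to 6.02) and Hist1h4c (0.364 to 6.60). Hist1h4d had -0.203 and 7.72 RPKM in p65KO aTregs, 7.35 and 6.05 in c-RelKO aTregs and 14.3, 6.59 and 7.42 in WT aTregs, and in rTregs 5.15 and 5.91, 5.25 and 6.69, and 15 and 6.61 in the same genotypes. Its low p65KO value came from 1 library.

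Between WT aTregs and WT rTregs 2 of 22 members passed, both lower in aTregs, and none was higher (4.68% of all 10656 genes were called lower and 7.54% higher by limma). The median log2 difference was -0.27, against -0.06 over all genes, and 15 of 22 were below 0 (56.5% of all genes). Every aTreg library was lower for 5 members (21.9% of all genes) and higher for 3 (19%). Hist1h2bc had 3.44, 1.95 and 2.58 RPKM in WT aTregs, against 6.62 and 4.90 in WT rTregs (mean 2.65 ± 0.750, n = 3, against 5.76 ± 1.22, n = 2; SD). No aTreg library reached the rTreg libraries, and the log2 difference was -1.0 (SE 0.23, adjusted p = 0.0268). Hist1h4n (ENSMUSG00000069305.3, chr13:21831767-21832196, - strand) had 0.0343, 0.334 and 0.525 RPKM in WT aTregs, against 1.34 and 1.35 in WT rTregs, again without overlap (-1.26, SE 0.32, adjusted p = 0.0354). Hist1h4n reached 1 RPKM in only 3 sorted libraries, those of WT rTregs and c-RelKO rTreg replicate 1. The filter thus favoured a value lower in WT aTregs for it. The depth behind these low values is unknown, and 85.6% of its windows occur in other genes. Its 0.525 RPKM in WT aTreg replicate 3 was also the exact deposited value of c-RelKO aTreg replicate 3, so it may not be a measured level. Both calls were lost without WT rTreg replicate 1, WT aTreg replicate 1 or WT aTreg replicate 2; that of Hist1h4n was also lost without WT rTreg replicate 2, where Hist1h2bc, Hist1h1c, Hist2h2aa1 and Hist3h2a were called lower. The authors' deposited table calls 0 members in this comparison and 11.2% of its genes.

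Genes of the cell-cycle lists were mostly above 0 in the same comparison. Of 12 mitosis genes 8 were higher in WT aTregs than in WT rTregs and all 12 were above 0, with a median of 2.05; Ccna2 rose by 2.71 (limma adjusted p = 0.0271) and Kif11 by 2.49 (0.0421). Of 20 DNA replication genes 7 were higher (median 0.67), among them Rrm2 (2.15, adjusted p = 0.031) and Tyms (1.3, 0.0265). Of 21 chaperones 2 were higher, Chaf1a (1.24) and Asf1b (1.1), and H1f0 rose by 1.73, while H2afy (-0.57) and Pou2f1 (-0.53) were lower. Without WT aTreg replicate 1 or 2 no gene of the mitosis and DNA replication lists was called. The difference between these lists and the histone members was not tested.

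**Figure D5:**
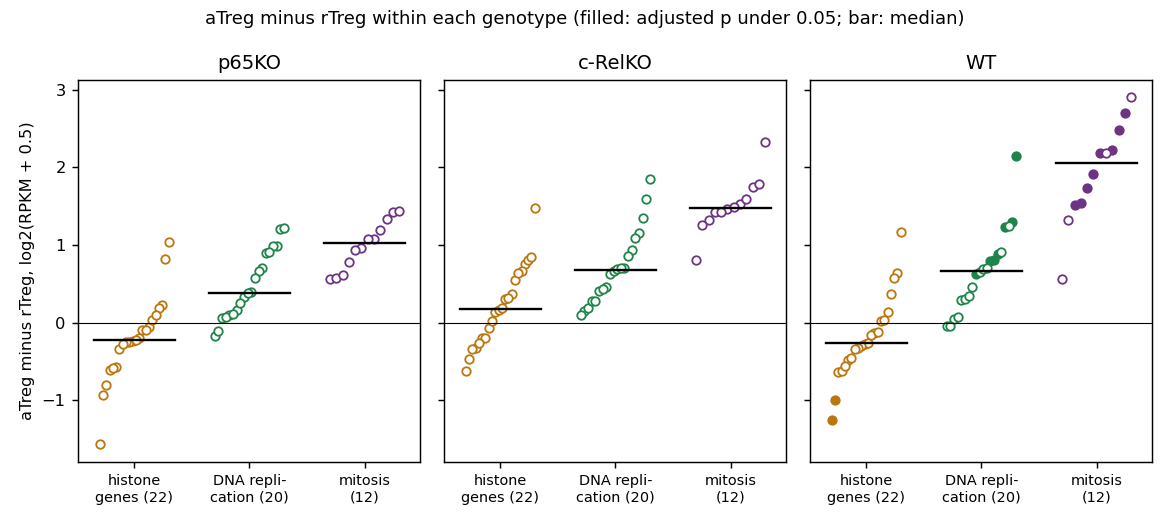
Difference between aTregs and rTregs of the same genotype on the log2(RPKM + 0.5) scale for the 22 kept histone genes, 20 DNA replication genes and 12 mitosis genes (points, spread sideways by rank; black bars are medians; filled points have a limma adjusted p under 0.05). In WT the medians are -0.27, 0.67 and 2.05, and 2 histone genes are filled, both below 0.

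In p65KO Tregs 0 of 22 members differed between aTregs and rTregs (338 genes, 3.17%, were called, 2.79% higher and 0.385% lower; 2 members had an unadjusted p under 0.05), with 16 below 0 (57.8% of all genes) and a median of -0.23. Every aTreg library was lower for 7 members (37% of all genes) and higher for 2 (27.2%). In c-RelKO Tregs 0 of 22 members and 0 of all genes were called (0%; 2 members and 1494 genes with an unadjusted p under 0.05), with 8 below 0 (59.5% of all genes) and a median of 0.17. Every aTreg library was higher for 6 members (21.9% of all genes) and lower for 2 (30.2%). The largest difference there was that of Hist1h2bj, which had 1.37 and 1.02 RPKM in c-RelKO aTregs, against 0.229 and -0.00763 in c-RelKO rTregs (1.48, SE 0.37, adjusted p = 0.191). Hist2h4, an H4 gene, had 1.81 and 1.72 RPKM in c-RelKO aTregs, against 1.04 and 0.589 in c-RelKO rTregs. In WT it had 1.58, 1.56 and 0.978 RPKM in aTregs, against 2.85 and 1.98 in rTregs, and in p65KO 0.0929 and 0.909 RPKM in aTregs, against 1.52 and 1.01 in rTregs. The groups did not overlap in any genotype, with c-RelKO in the opposite direction, but no member passed a test of the difference between genotypes (0 members and 0 genes in both tests; 1 and 3 members with an unadjusted p under 0.05; smallest adjusted p 0.898). The mitosis medians were 1.02 in p65KO and 1.48 in c-RelKO, and those of DNA replication 0.38 and 0.68, with none of these genes called.

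Loss of p65 or c-Rel moved no member past the threshold within either subset: 0 of 22 members and 0 of 10656 genes (0%) passed in limma in all 4 comparisons with WT. With an unadjusted p under 0.05 there were 4 members and 726 genes (6.81%) for p65KO against WT rTregs, 5 members and 775 genes (7.27%) for c-RelKO against WT rTregs, 4 and 365 (3.43%) for p65KO against WT aTregs, and 2 and 717 (6.73%) for c-RelKO against WT aTregs. The authors' deposited table calls 5, 4, 29 and 77 genes in these comparisons and 0 of its 52 members.

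In rTregs members were mostly below WT. For p65KO 16 of 22 were below 0 (56.2% of all genes; median -0.45, against -0.03 over all genes) and in 12 both KO libraries lay below both WT libraries (17.2% of all genes). For c-RelKO 18 of 22 were below 0 (53.2% of all genes; median -0.39, against -0.02) and 10 had no overlap (14.2% of all genes). Hist1h4c, for example, had 1.63 and 2.45 RPKM in p65KO rTregs, 0.364 and 2.50 in c-RelKO rTregs and 6.60 and 3.43 in WT rTregs. Both KO groups lay below both WT libraries for this gene, and WT replicate 1 was the highest. Both comparisons share the WT rTreg libraries, of which replicate 1 was the highest rTreg library for 13 of 22 members, and its part in these values was not tested. Cell-cycle genes lay on the other side in p65KO rTregs: all 12 mitosis genes (median 1.46, 9 with an unadjusted p under 0.05, every KO library higher in 11) and all 20 DNA replication genes (median 0.41, every KO library higher in 14) were above 0, and none was called. Every KO library was higher for 13.9% of all genes. In c-RelKO rTregs 11 of 12 mitosis genes (median 0.65) and 14 of 20 DNA replication genes (median 0.08) were above 0, with none called. Erythroid markers summed to 3.65 to 3.88 RPKM in p65KO rTregs and 3.00 to 5.67 in c-RelKO rTregs, against 0.0435 to 1.53 in WT rTregs, and their part was not tested.

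In aTregs p65KO had 17 of 22 members below WT (52.6% of all genes; median -0.37), with no overlap in 6 (11.7% of all genes), and the lowest log2 difference was that of Hist1h4d (-2.21), which rests on p65KO replicate 1. c-RelKO had 14 of 22 below WT (47% of all genes; median -0.06), with every library lower in 2 (13.8% of all genes) and higher in 5 (11.8%). Set against each other, p65KO and c-RelKO did not differ in any member or gene by limma (0 of 22 and 0% in each subset; 2 members with an unadjusted p under 0.05 in each, and 215 genes in rTregs and 634 in aTregs). The medians were 0.01 in rTregs and -0.35 in aTregs, where p65KO lay below c-RelKO in every library for 11 members (19.7% of all genes).

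The same gene could differ in place between the sets, which were normalized separately and are not compared by test. Hist1h1c was among the highest members per length in both, and Hist3h2a in stimulated Tregs. Hist1h3c and Hist1h3a, which held up to 5.02 and 2.56 RPKM in stimulated Tregs, did not reach the filter in sorted Tregs, and Hist1h2bj had at most 2.09 RPKM there, against 6.40 in stimulated WT Tregs with water.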

How the data were processed

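Each set has 1 deposited table. Per the file headers it gives RPKM by library, and beside them log2 fold changes with p-values from comparisons made by the authors. Per the submitters' processing notes STAR, mm10 and DESeq2 1.10.1 were used; multi-mapped reads, strand and poly(A) selection are not given in the sources used here. Decimal commas in the deposited files were read as points, and the unit was therefore recorded as other. The deposited RPKM of the sorted set were adjusted by the authors in a way not described; library pairs with a common replicate number (26) share 15883 identical values and the other 52 pairs share 0.

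The tables list 14310 and 14839 genes; 20 and 21 with a date in place of the symbol have no values and were left out, and 0 per-sample columns were unused. In the stimulated set reads per member were recovered from RPKM steps (within 0.005 of a whole read). Library totals behind these RPKM were 14.9 to 21.9 M reads (M, mega), while the series design states 30 M per sample. In the sorted set depth is unknown. A library held 9469 to 10317 genes at 1 RPKM or more.

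Values below 0 were set to 0 and log2(RPKM + 0.5) was taken, which understates changes of low genes. Genes that reached 1 RPKM in 2 or more libraries were tested in limma 3.58.1 (group means, eBayes with trend, R 4.3.3), all groups of a set in 1 fit, two-sided, Benjamini-Hochberg over all genes tested, threshold 0.05. The same adjustment was applied to the authors' deposited p-values. The procedure was tested on simulated data. Python 3.11.15, pandas 2.3.3, numpy 2.4.6, scipy 1.17.1 and matplotlib 3.10.9 served for tables, intervals and figures. Sequences came from GENCODE vM21 and RefSeq.

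Members and lists were chosen with earlier results of these data known. Named were the 3 highest members of each type and set, up to 4 called members per direction, members known for polyadenylated transcripts, up to 2 called genes per list and direction, and Rel, Rela and Foxp3; other members were named after their values were seen. The testis-type genes Hist1h1t, Hist1h2aa and Hist1h2ba were not analysed here. Replicate numbers were not taken as pairs: deviations of same-numbered stimulated libraries correlated at 0.40, 0.12 and -0.07, and in the sorted set the adjustment itself acts on the numbers. A check of 1 sort marker is not reported here.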

Additional observations from a re-analysis of the deposited data

How the results depend on the processing

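Member counts and named members were recomputed with pseudocounts of 0.1 and 1, no filter and 3 RPKM, robust variance, median-of-ratios scaling, a fit of only the groups compared, sorted genes with a value below 0 left out, the authors' p-values, a term for replicate number, and each library left out; the last leaves 1 library in a group of 2, assumed to vary like the others. Of the recomputed member counts 287 stayed within 1.5 times and 15 did not. Most comparisons had a main count of 0, and a count that stayed at 0 is among the 287. That number therefore says little about the main counts of 8, 6 and 2 given next. The pentoxifylline count against water, 8, was 5 to 9 when a library was left out (5 without water replicate 2), 3 in the authors' table (Hist1h1c, Hist3h2a and Hist1h2bj) and 11 of 55 with no filter. Against c-RelKO the count, 6, was 4 to 7 when a library was left out. Between WT aTregs and rTregs the count, 2, was 0 to 4 when a library was left out, 1 with a pseudocount of 0.1, with 3 RPKM and without genes that have values below 0 (Hist1h2bc in each), and 0 with only the groups compared or in the authors' table. For p65KO aTregs the count was 0 to 1 against WT aTregs and 0 to 1 against p65KO rTregs (Hist1h4d, without aTreg replicate 2), and against p65KO rTregs 1 with only the groups compared (Hist1h1b). The direction of Hist1h2ae, from -1.09 to 0.14 when a library was left out, turned without pentoxifylline replicate 2, and that of Hist1h4i, from -0.11 to 0.61, without pentoxifylline replicate 1; neither was called. Causes were not tested, and fewer libraries enter when 1 is left out.

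With the replicate block, in which the numbers are taken as pairs, the member counts were 8 for pentoxifylline against water, 7 against c-RelKO, 2 between WT aTregs and rTregs and 1 between c-RelKO aTregs and rTregs (Hist1h2bj, limma adjusted p = 0.0292, against 0.191 without the block); all others stayed at 0. Members with few reads, such as Hist1h3c and Hist1h2bj with 1 to 8 reads in a pentoxifylline library, and the unknown depth of the sorted set limit all statements on low values.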
